A study of Mus musculus with 20 samples.

Results

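The mesenteric lymph node arm of a mouse study of Tet2 and Tet3 was examined for genes on which loss of both enzymes acted differently in regulatory T (Treg) cells and in the Foxp3- CD4+ T cells of the same nodes. It comprises 12 of the 20 RNA-seq libraries of the series, all those made from mesenteric nodes, in 4 groups of 3 mice each. The other 8 libraries came from spleen and peripheral lymph nodes and are used only for a side-by-side reading. All mice were C57BL/6, 14 weeks old, and carried a YFP-Cre fusion knocked into Foxp3, the gene for the transcription factor that defines Treg cells. WT mice carried Foxp3Cre alone. DKO mice carried Tet2/3 fl/fl Foxp3Cre, so that the floxed alleles were excised in cells that expressed Foxp3. CD4+YFP+ cells (Treg cells) and CD4+YFP- cells (Foxp3- cells) were sorted from these mice. A mouse number below is the replicate number of the label, which does not state that equal numbers are the same mouse. In DKO mice the Foxp3- gate therefore held T cells that had never expressed Foxp3 and kept both genes, together with cells that had lost Foxp3 after deletion. Their shares were not measured here.

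TET enzymes oxidize 5-methylcytosine, the first step of DNA demethylation, and Treg cells depend on demethylated enhancers to keep Foxp3 and other Treg genes on. Treg cells restrain other T cells, carry the high-affinity IL-2 receptor and CTLA-4, and include tissue-adapted cells that bear the IL-33 receptor. When Treg cells fail, the Foxp3- T cells around them become activated, so a genotype difference in Foxp3- cells of these mice can arise without any deletion in those cells.

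For each gene the DKO-minus-WT difference in Foxp3- cells was subtracted from the DKO-minus-WT difference in Treg cells, on the log2 scale. This quantity, called the interaction, is negative where DKO Treg cells lost more, or gained less, than DKO Foxp3- cells, and positive in the reverse case. Of 16784 genes tested, 47 passed with a Benjamini-Hochberg adjusted p no higher than 0.05 in edgeR, which is 0.28% of them. Of the 47, 20 were positive (0.119% of genes) and 27 were negative (0.161%). A further reading placed each called gene by its 2 separate DKO effects, where an effect was called if its adjusted p was no higher than 0.05 and the change reached 1.5-fold. In 29 genes the DKO effect was called in Treg cells and was under 1.5-fold in Foxp3- cells, 15 up and 14 down. In 3 genes both effects were called with opposite signs, in 1 gene both were called with the same sign, and the remaining 14 genes fell outside these patterns. Just inside the threshold lay Cdc42bpb (3.07, adjusted p = 0.0461), Ccdc102a (3.07, adjusted p = 0.0493) and N4bp2l1 (−0.62, adjusted p = 0.0493). Just outside it lay Fbxo32 (−0.77, adjusted p = 0.0519), Serpina3g (−1.65, adjusted p = 0.0556) and Camk2n1 (−2.94, adjusted p = 0.0557). Kcnk6 had a called effect in Foxp3- cells and an uncalled one in Treg cells (−0.65, adjusted p = 0.0566), but the latter was not under 1.5-fold. With that second condition 0 genes were placed in Foxp3- cells only by edgeR and 21 by DESeq2. An unadjusted p under 0.05 for the interaction was found in 1827 genes.

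**Figure D1:**
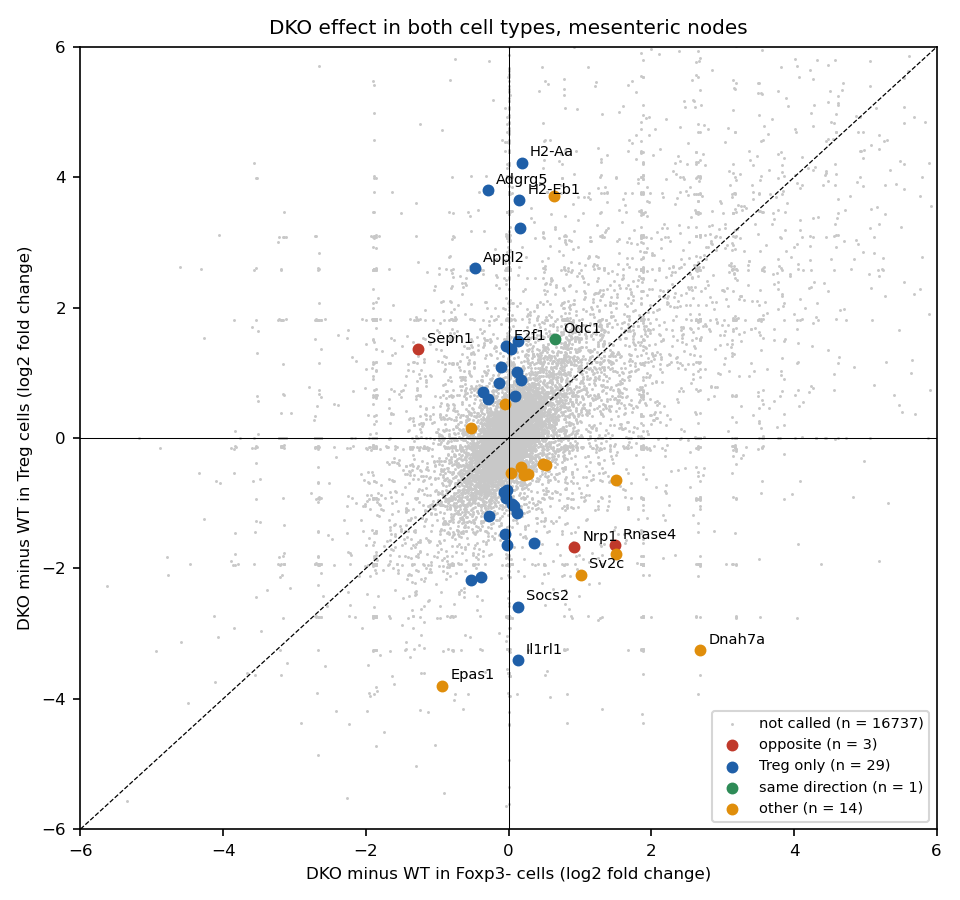
DKO-minus-WT log2 fold change in Foxp3- cells (x axis) and in Treg cells (y axis) for the 16784 genes tested, with the 47 genes called by the interaction coloured by pattern and 182 genes beyond the axis limits not drawn. Most coloured genes lie near the vertical line, where Foxp3- cells show little difference, and the dashed line marks equal effects in both cell types.

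WT libraries of a cell type were close to each other. CPM denotes reads of a gene scaled to the size of its library. Of the 9475 genes that averaged 5 CPM or more, between 7 and 22 lay over 2-fold from the mean of the other WT libraries of the same cell type. DKO Treg libraries had 672, 892 and 573 such genes against the WT Treg mean. DKO Foxp3- libraries had 185, 1097 and 407 against the WT Foxp3- mean, so that mouse 2 stood far from mice 1 and 3. Plasma cell genes were also high in both libraries of that mouse, at a summed 710 CPM in Foxp3- cells and 622 CPM in Treg cells, against 62.0 to 128 CPM in the other 10 libraries. Natural killer cell genes summed to 13.6 to 44.5 CPM in WT libraries and 63.5 to 166 CPM in DKO libraries, and myeloid genes to 626 to 682 CPM in WT Treg cells and 360.3 to 468 CPM elsewhere. These sums do not measure amounts of such cells. The myeloid markers Lyz2, Csf1r and Itgax were at most 2.22, 0.216 and 0.774 CPM in any library, so other listed genes made up the myeloid sums. Xbp1, at 57.4 to 119 CPM, made up most of the plasma cell sum in the 10 libraries outside DKO mouse 2. In that mouse Jchain stood at 474 CPM in Foxp3- cells and 412 CPM in Treg cells. The part of plasma, natural killer and myeloid cells in the results was not tested. Without both libraries of DKO mouse 2 the interaction called 538 of 16518 genes (218 positive and 320 negative), and all 47 genes were among them. In that reading 6 genes moved in opposite directions, 318 in Treg cells only and 22 in Foxp3- cells only. Without the DKO Foxp3- library of mouse 2 alone the count was 462, and without that of mouse 1 it was 234.

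**Figure D2:**
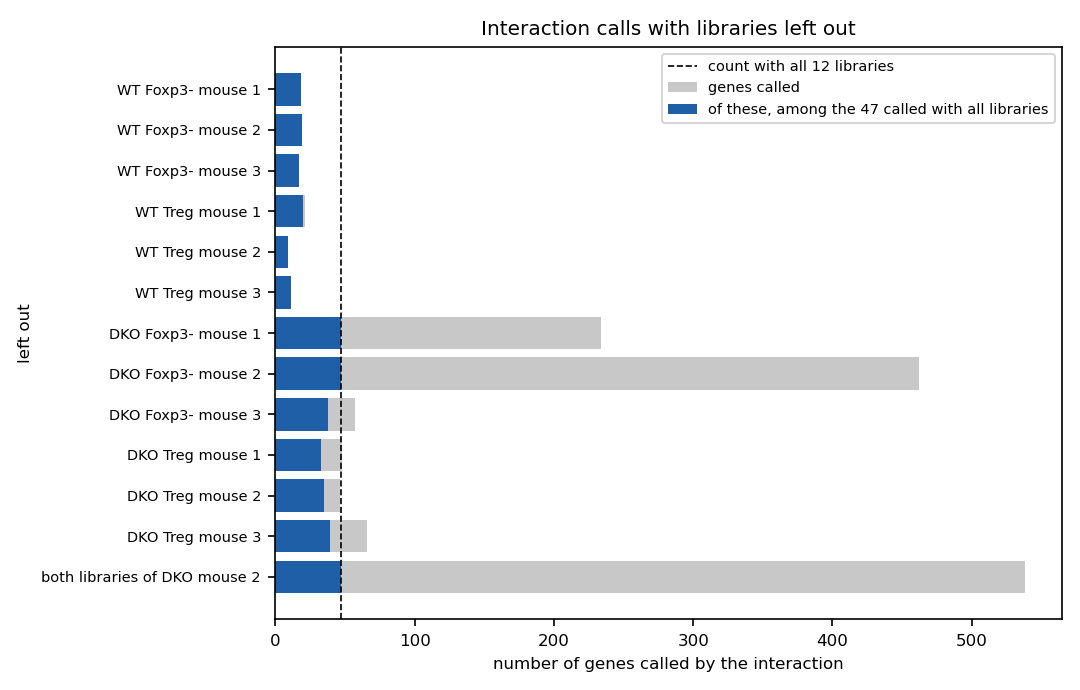
Number of genes called by the interaction after leaving out each library in turn, or both libraries of DKO mouse 2, with the share that belongs to the 47 genes in blue. The count fell to between 9 and 21 without any of the 6 WT libraries and rose to 234 and 462 without the DKO Foxp3- libraries of mouse 1 and mouse 2.

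Treg and Foxp3- samples of a genotype with the same replicate number deviated together, so a fit with that number as the mouse block was also made. It called 118 genes (0.703% of all), 37 positive (0.22%) and 81 negative (0.483%), and 41 of the 47 genes were among them. The genes not called in the blocked fit were Dnah7a (adjusted p = 0.0604), Socs2 (0.0518), Kcnk5 (0.0512), Cdc42bpb (0.0827), Mcm5 (0.0601) and Ccdc102a (0.0512). All 47 genes kept their sign in every alternative that was run, and 47 of 47 were also called by DESeq2, which called 409 genes in all. These fits use the libraries that chose the 47 genes, so a kept sign or call is no independent support. The number of the 19 alternatives in which a gene was called ran from 8 (Mcm5 among others) to 19 (Nrp1 among others).

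The sorted cells carried the markers of CD4+ T cells. Cd4 lay between 961 and 2320 CPM and Cd3e between 561 and 791 CPM in the 12 libraries. Foxp3 (chrX:7156802-7172369, mm9) separated the gates in both genotypes. It stood at 1.62, 1.35 and 1.396 CPM in WT Foxp3- cells and at 2.75, 0.211 and 1.33 CPM in DKO Foxp3- cells. It stood at 310.0, 299 and 326 CPM in WT Treg cells and at 277, 308 and 329 CPM in DKO Treg cells. The Treg groups overlapped, and the interaction for Foxp3 was 0.06 ± 0.54 (SE, adjusted p = 1.0). Tet2 lay between 7.69 and 12.8 CPM and Tet3 between 48.4 and 136 CPM in the 12 libraries. These counts cover all exons of each gene, deleted or not, and therefore do not check the genotype.

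The DKO effect itself was far wider in Treg cells. There 1426 genes (8.5%) were higher and 575 (3.43%) lower in DKO mice, against 524 higher (3.12%) and 51 lower (0.304%) in Foxp3- cells. Of the 414 genes called in both cell types, 411 moved the same way, 369 up and 42 down. Of the 1587 genes called in Treg cells and not in Foxp3- cells, 34 also had a called interaction. Most genes that met the threshold in Treg cells alone were thus not shown to differ between the cell types. In bulk libraries such as these, fewer cells of a kind and less RNA per cell cannot be told apart.

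Among genes that moved in opposite directions, Nrp1 had the lowest adjusted p of the whole comparison. Nrp1 (chr8:130882973-131029362, mm9) encodes neuropilin-1, a surface co-receptor for semaphorins and VEGF that marks thymus-derived Treg cells. It stood at 23.9, 26.3 and 23.4 CPM in WT Foxp3- cells and rose to 32.6, 66.6 and 39.9 CPM in DKO Foxp3- cells. In Treg cells it fell from 346, 341 and 308 CPM in WT mice to 103, 94.4 and 114 CPM in DKO mice. The groups did not overlap in either cell type. The log2 fold change was −1.68 in Treg cells (adjusted p = 0.000166) and 0.92 in Foxp3- cells (adjusted p = 0.0234), and the interaction was −2.60 ± 0.28 (SE, adjusted p = 0.00588). Without DKO mouse 2 the change in Foxp3- cells was 0.55, under 1.5-fold, and the interaction was −2.16, so that Nrp1 then counted as lost in Treg cells only.

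Rnase4 encodes a secreted ribonuclease. It stood at 3.92, 4.86 and 3.99 CPM in WT Foxp3- cells and at 6.39, 22.1 and 7.07 CPM in DKO Foxp3- cells, with the highest value in mouse 2. In Treg cells it fell from 51.0, 49.0 and 38.6 CPM to 14.1, 14.2 and 16.1 CPM. The interaction was −3.13 ± 0.51 (SE, adjusted p = 0.025). Without DKO mouse 2 it was −2.25, and the change in Foxp3- cells was no longer called (adjusted p = 0.0587). Rnase4 starts at the same position as Ang, the angiogenin gene, and overlaps it on the same strand (interaction of Ang −3.06, adjusted p = 0.244), so the reads of the pair may have been split between them. Sepn1, which encodes selenoprotein N of the endoplasmic reticulum, was the opposite gene that went up in Treg cells. Its values were 8.001, 5.74 and 5.98 CPM in WT Foxp3- cells, 3.46, 2.11 and 2.65 CPM in DKO Foxp3- cells, 4.19, 2.81 and 3.44 CPM in WT Treg cells and 11.1, 6.54 and 9.31 CPM in DKO Treg cells. All Sepn1 groups were below 10 CPM on average, DKO and WT did not overlap in either cell type, and the interaction of 2.63 ± 0.38 (SE, adjusted p = 0.0111) was 2.66 without DKO mouse 2.

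Il1rl1 (chr1:40486415-40522260, mm9) encodes ST2, the receptor for the alarmin IL-33. It stood at 39.1, 41.2 and 40.5 CPM in WT Treg cells and at 0.917, 6.97 and 3.36 CPM in DKO Treg cells. Foxp3- cells held 2.47, 3.78 and 2.39 CPM in WT mice and 2.84, 4.01 and 2.65 CPM in DKO mice, so DKO Treg cells were at the level of Foxp3- cells. The interaction was −3.54 ± 0.64 (SE, adjusted p = 0.0404), and it was called under 9 of the 19 alternatives, with an adjusted p between 6.97e-05 and 0.132.

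Socs2, a suppressor of cytokine signalling that acts downstream of growth hormone and STAT5, also fell in Treg cells and stayed above its level in Foxp3- cells. It stood at 69.4, 85.6 and 80.5 CPM in WT Treg cells, 13.6, 7.55 and 18.2 CPM in DKO Treg cells, and between 1.28 and 2.74 CPM in the 6 Foxp3- libraries. Its interaction was −2.71 ± 0.48 (SE, adjusted p = 0.0349), which missed the threshold in the blocked fit as given above. Hopx, a homeodomain-only protein linked to peripherally induced Treg cells, fell from 134, 127 and 134 CPM to 44.0, 33.9 and 49.2 CPM in Treg cells and lay between 15.6 and 23.4 CPM in Foxp3- cells (interaction −1.61 ± 0.21, adjusted p = 0.00735). Tgfbr1, which encodes the signalling chain of the TGF-β receptor, fell from 158, 171 and 189.6 CPM to 91.7, 62.0 and 79.8 CPM in Treg cells. Its values in Foxp3- cells were 34.5, 41.7 and 44.3 CPM in WT mice and 39.0, 48.1 and 43.1 CPM in DKO mice, and its interaction was −1.26 ± 0.20 (SE, adjusted p = 0.0187).

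Itga6 encodes the α6 integrin chain, a laminin receptor. It stood at 336, 336 and 336 CPM in WT Treg cells and fell to 68.3, 66.8 and 87.9 CPM in DKO Treg cells. In Foxp3- cells it was 230.4, 226 and 229 CPM in WT mice and 165, 118 and 192 CPM in DKO mice, a lower level without overlap that was not called (log2 fold change −0.53, adjusted p = 0.0634). Pde2a, a cyclic nucleotide phosphodiesterase, behaved alike, from 184, 194 and 189 CPM to 33.8, 48.8 and 47.1 CPM in Treg cells, with an interaction of −1.75 ± 0.20 (SE, adjusted p = 0.00604). Both genes were lower in DKO Treg cells than in DKO Foxp3- cells, although they were higher in Treg cells of WT mice.

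Itgb1, the β1 integrin chain and a partner of the α6 chain, lay 180 kb from Nrp1 on chromosome 8 and had an interaction of −0.88 ± 0.14 (SE, adjusted p = 0.0187). Its Treg level was 278, 273 and 281 CPM in WT mice and 218, 223 and 192 CPM in DKO mice, and its Foxp3- level was 139, 162 and 152 CPM in WT mice and 185, 209 and 237 CPM in DKO mice. The groups did not overlap in either cell type, and both changes were under 1.5-fold. Thy1, the surface glycoprotein CD90 of T cells, was lower in DKO Treg cells (355, 303 and 351 CPM) than in WT Treg cells (793, 772 and 748 CPM), with an interaction of −0.92 ± 0.16 (SE, adjusted p = 0.0307). Plac8 (interaction −1.96) and Cpd, which encodes carboxypeptidase D (−1.42), also fell in Treg cells only. So did St8sia4, a polysialyltransferase (−1.13), and Arl5a, a small GTPase of the Golgi (−1.07). The other losses of this pattern were 1110032F04Rik (−0.88), Itm2b (−0.77) and Cyth3 (−0.77).

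**Figure D3:**
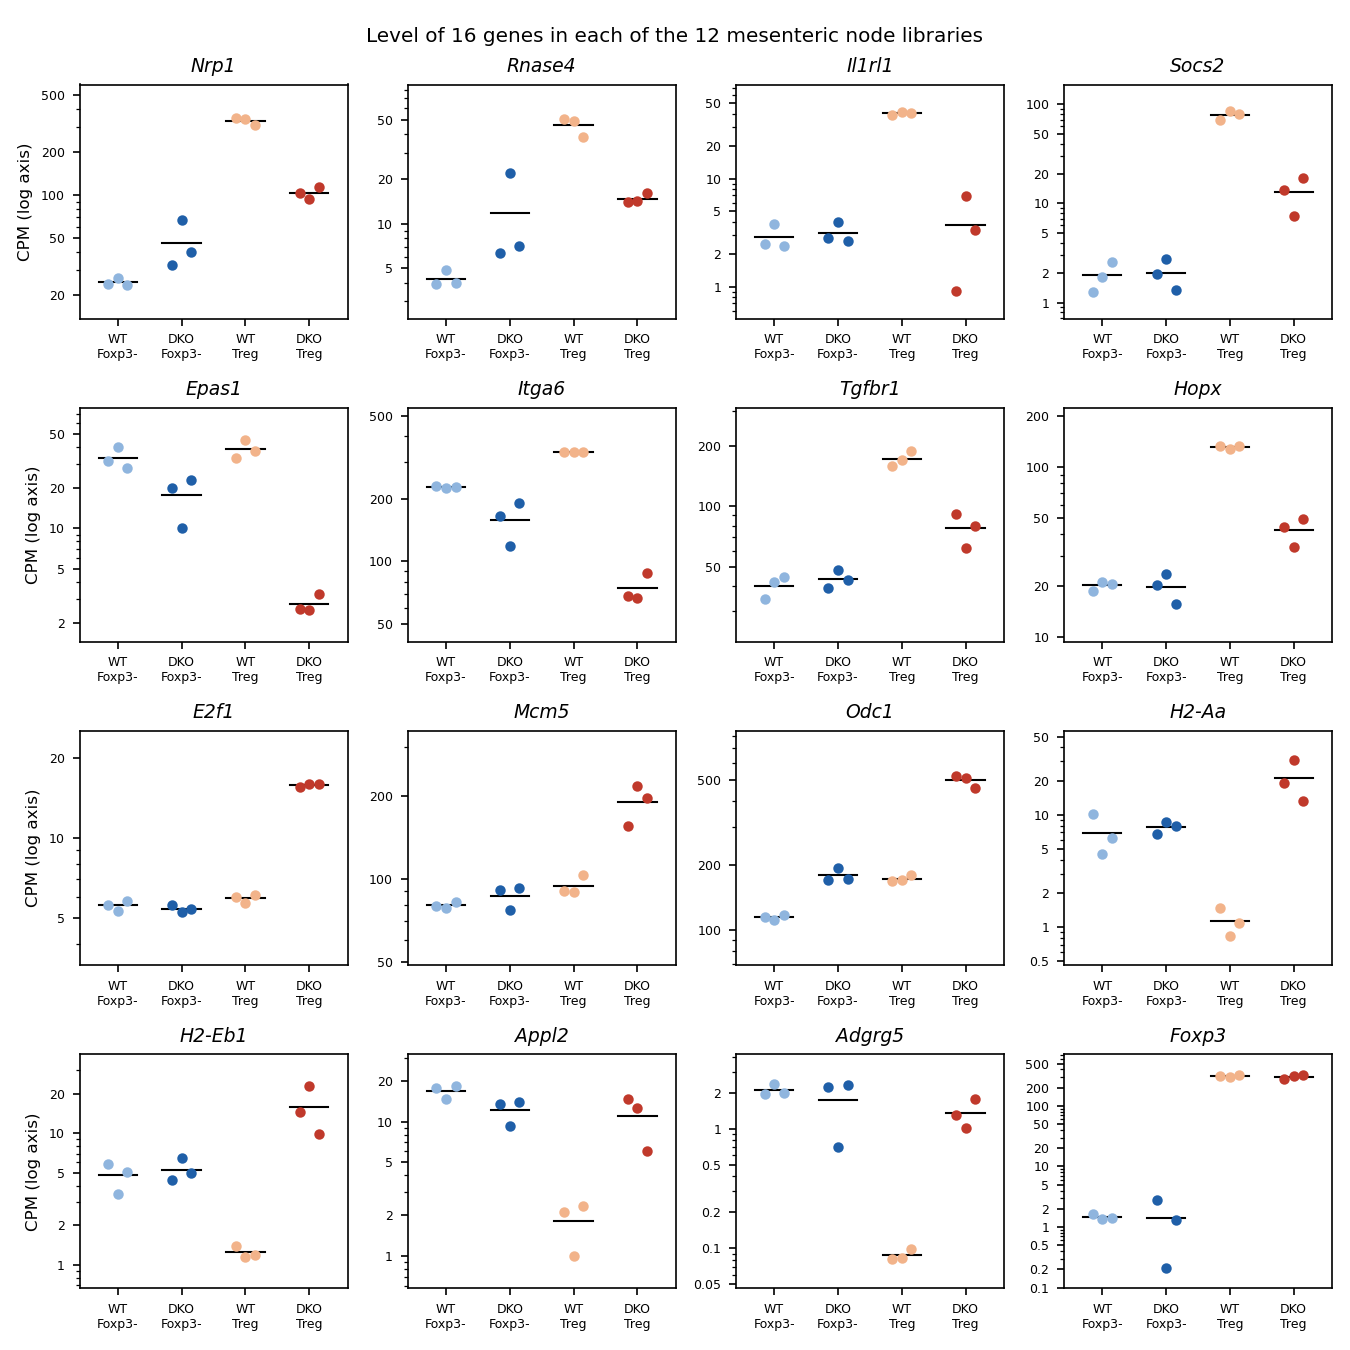
CPM of 16 genes in each of the 12 mesenteric node libraries on log axes, with 3 points per group in the order of mouse 1 to 3 and a line at the group mean. Il1rl1 in DKO Treg cells (0.917 to 6.97 CPM) overlaps the Foxp3- libraries, whereas E2f1 stands at 15.6 to 15.9 CPM in DKO Treg cells and at most 6.10 CPM in all other libraries.

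The genes that rose in DKO Treg cells alone included genes of MHC class II. H2-Aa (chr17:34406276-34424772, mm9) and H2-Eb1 (chr17:34442828-34453144, mm9) encode an I-A alpha and an I-E beta chain, which belong to different class II molecules. Class II molecules are made mainly by B cells, dendritic cells and macrophages. Whether these chains formed class II molecules here was not measured. H2-Aa stood at 1.48, 0.827 and 1.08 CPM in WT Treg cells and at 19.4, 31.2 and 13.4 CPM in DKO Treg cells. In Foxp3- cells it was 10.1, 4.46 and 6.18 CPM in WT mice and 6.83, 8.58 and 8.04 CPM in DKO mice. Treg cells thus went from the lowest to the highest H2-Aa level of the 4 groups, while the Foxp3- groups overlapped. The interaction was 4.04 ± 0.51 (SE, adjusted p = 0.00735). H2-Eb1 rose from 1.396, 1.16 and 1.18 CPM to 14.4, 22.9 and 9.90 CPM in Treg cells and lay between 3.44 and 6.47 CPM in Foxp3- cells (interaction 3.50 ± 0.45, adjusted p = 0.00735). H2-Ab1, the partner chain of H2-Aa, had an interaction of 4.09 ± 0.82 (SE) that missed the threshold (adjusted p = 0.0576) and passed it in the blocked fit (adjusted p = 0.00298). It was called under 6 of the 19 alternatives, with an adjusted p up to 0.203.

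Of the 10 class II genes measured, 2 had a called interaction, both positive (0.119% of all genes). In Treg cells 6 were higher and 1 lower in DKO mice, against 8.5% and 3.43% of all genes, and in Foxp3- cells 0 were higher and 1 lower, against 3.12% and 0.304%. The median interaction of the list was 0.85, against −0.01 over all genes. Ciita, the master activator of these genes, was at most 1.76 CPM in any library and was not called (interaction 2.004 ± 0.82, adjusted p = 0.384). B cell genes were summed beside these values. Their level was 10.1 to 11.7 CPM in WT Foxp3- cells, 12.9 to 26.0 CPM in DKO Foxp3- cells, 41.9 to 51.0 CPM in WT Treg cells and 45.4 to 109 CPM in DKO Treg cells. The defining marker Ms4a1 was at or below 0.503 CPM in all libraries, and Cd79a reached 3.45 CPM in DKO Treg cells and 3.73 CPM in DKO Foxp3- cells, both in mouse 2. Cd79b, the partner chain of Cd79a, fell in Treg cells (adjusted p = 0.0376), from 30.0, 34.2 and 26.4 CPM in WT mice to 7.03, 16.4 and 5.45 CPM in DKO mice, and made up most of the WT Treg sum. Of the 14 B cell genes measured, 4 were higher and 2 lower in DKO Treg cells, against 8.5% and 3.43% of all genes. The dendritic cell markers Itgax and Flt3 were at most 0.774 and 0.511 CPM. Without both libraries of DKO mouse 2 the interaction of H2-Aa was 3.75 and that of H2-Eb1 3.31. In that reading 4 of the 10 class II genes were called, 3 positive and 1 negative, against 1.32% and 1.94% of all genes. H2-Ab1 was then 4.28 (adjusted p = 0.000229) and H2-DMa −0.64 (adjusted p = 0.0247). The part of B cells in these values was not tested.

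The promoters of H2-Aa and H2-Eb1 are shown because both hold the Y box, a promoter sequence known from class II genes that the factor NF-Y binds. The windows run from 250 bases before to 50 bases after the RefSeq start (GRCm38.p6, in the direction of the gene), with the letters CTGATTGG, sought on both strands, in capitals. H2-Aa lies at chr17:34287774-34288073 on the minus strand and H2-Eb1 at chr17:34305617-34305916 on the plus strand.
H2-Aa: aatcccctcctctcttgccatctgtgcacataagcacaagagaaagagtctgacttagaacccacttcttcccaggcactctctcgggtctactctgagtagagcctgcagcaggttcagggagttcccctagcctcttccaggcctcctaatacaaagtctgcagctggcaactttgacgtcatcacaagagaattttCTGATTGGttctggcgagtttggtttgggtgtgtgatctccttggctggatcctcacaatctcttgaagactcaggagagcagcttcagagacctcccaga
H2-Eb1: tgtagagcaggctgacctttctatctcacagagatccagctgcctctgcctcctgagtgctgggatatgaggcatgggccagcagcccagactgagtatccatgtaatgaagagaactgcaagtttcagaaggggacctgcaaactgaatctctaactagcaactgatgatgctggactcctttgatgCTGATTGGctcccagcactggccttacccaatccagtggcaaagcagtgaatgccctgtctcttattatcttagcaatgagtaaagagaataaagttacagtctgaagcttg
The match started 51 bases before the H2-Aa start and 62 bases before the H2-Eb1 start. Such a match was found in 4.1% of all 32851 promoters, in 6.14% of the genes tested that had a window and in 3 of the 7 class II genes that had one. The H2-Aa window held 3 CpG pairs and the H2-Eb1 window 0, against a median of 18 over the promoters of the genes tested.

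Genes of DNA replication formed the second group of gains. E2f1 (chr2:154385143-154395628, mm9) encodes a transcription factor that drives entry into S phase. It stood at 5.62, 5.33 and 5.79 CPM in WT Foxp3- cells, 5.59, 5.28 and 5.39 CPM in DKO Foxp3- cells and 6.00, 5.71 and 6.10 CPM in WT Treg cells. In DKO Treg cells it was 15.6, 15.9 and 15.9 CPM. Only the DKO Treg libraries stood apart, and the interaction was 1.45 ± 0.19 (SE, adjusted p = 0.00812). Mcm3 and Mcm5 encode subunits of the MCM helicase that unwinds DNA at origins. Mcm3 rose from 109, 114 and 115 CPM to 194, 224 and 211 CPM in Treg cells (interaction 0.72 ± 0.11, adjusted p = 0.0151). In Foxp3- cells it was 100.4, 103 and 99.7 CPM in WT mice and 112, 106 and 123 CPM in DKO mice, a difference that was not called (adjusted p = 0.254). Mcm5 was 90.6, 89.6 and 103 CPM in WT Treg cells and 155, 218 and 196 CPM in DKO Treg cells, with an interaction of 0.89 ± 0.16 (SE, adjusted p = 0.0448).

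All 44 S phase genes measured had a positive interaction, against 8191 of all 16784 genes. Of them, 3 were called by edgeR, and 31 (70.5%) had a positive interaction with an unadjusted p under 0.05, against 4.96% of all genes. DESeq2 called 18 of the 44, all positive (40.9%), against 1.35% of the 12200 genes to which it gave an adjusted p. In Treg cells 37 of the 44 were higher in DKO mice and 0 lower, against 8.5% and 3.43% of all genes. In Foxp3- cells 6 were higher and 0 lower, against 3.12% and 0.304%. The median DKO effect of the list was 1.06 in Treg cells and 0.33 in Foxp3- cells. Brca1 (interaction 1.09, adjusted p = 0.0908) and Ccne1, which encodes cyclin E1 (1.05, adjusted p = 0.114), exceeded Mcm3 and Mcm5 in size and were not called. Of the 40 genes of G2 and M phase, 38 were higher in DKO Treg cells and 14 in DKO Foxp3- cells (8.5% and 3.12% of all genes), with a median interaction of 0.63. Of the 40, edgeR called 0. DESeq2 called 4 positive (10%), against 1.35% of the 12200 genes to which it gave an adjusted p, and 17 had a positive interaction with an unadjusted p under 0.05 (4.96% of all genes). Kif23, a kinesin of cytokinesis, had an interaction of 1.19 (adjusted p = 0.0577) and Cenpf, a kinetochore protein, of 1.63 (adjusted p = 0.0911). Over the 19 alternatives Brca1 and Kif23 were each called in 4 and Cenpf in 3. Without DKO mouse 2, 12 S phase genes, Brca1 among them, and 2 G2 and M phase genes, Kif23 and Cenpf, were called (27.3% and 5% of the lists, against 1.32% of all genes called positive in that reading).

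The promoters of the helicase genes are printed because both hold E2F-type letters. E2F-type words of 8 letters were sought on both strands (TTTCGCGC, TTTGGCGC, TTTCCCGC and TTTGCCGC), and matches are in capitals. The windows are again RefSeq (GRCm38.p6), Mcm3 at chr1:20820263-20820562 on the minus strand and Mcm5 at chr8:75109259-75109558 on the plus strand.
Mcm3: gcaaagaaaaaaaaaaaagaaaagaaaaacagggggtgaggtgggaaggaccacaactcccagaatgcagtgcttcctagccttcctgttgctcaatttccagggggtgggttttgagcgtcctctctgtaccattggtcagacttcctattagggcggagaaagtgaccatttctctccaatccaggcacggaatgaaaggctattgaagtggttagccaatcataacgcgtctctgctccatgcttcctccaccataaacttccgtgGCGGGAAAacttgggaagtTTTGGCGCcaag
Mcm5: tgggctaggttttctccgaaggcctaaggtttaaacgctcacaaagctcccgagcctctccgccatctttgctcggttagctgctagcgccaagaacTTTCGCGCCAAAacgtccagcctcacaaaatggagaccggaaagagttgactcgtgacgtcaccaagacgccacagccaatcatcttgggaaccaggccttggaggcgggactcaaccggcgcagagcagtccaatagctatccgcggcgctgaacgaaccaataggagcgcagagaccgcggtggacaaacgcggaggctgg
Mcm3 held 2 matches, and Mcm5 held 2 that overlap as 1 stretch of capitals. A match was found in 2.26% of all promoters, in 4.12% of the genes tested that had a window and in 14 of the 35 S phase genes that had one. These are letter matches and not mapped binding sites.

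Odc1 was the gene with both effects called in the same direction. It encodes ornithine decarboxylase, the entry enzyme of polyamine synthesis. It rose from 115, 112 and 118 CPM to 171, 195 and 173 CPM in Foxp3- cells and from 169.8, 171 and 180.3 CPM to 519, 509.9 and 458 CPM in Treg cells. DKO and WT libraries did not overlap within either cell type, and the gain was larger in Treg cells by 0.86 ± 0.11 (SE, log2, adjusted p = 0.00735). Its change in Foxp3- cells without DKO mouse 2 was 0.58, just under 1.5-fold, so that Odc1 then counted as changed in Treg cells only. Cad, the enzyme that starts pyrimidine synthesis, was 115, 111 and 111 CPM in WT Treg cells and 151, 163 and 170.3 CPM in DKO Treg cells, and lay between 108 and 121 CPM in Foxp3- cells (interaction 0.57 ± 0.10, adjusted p = 0.0307). Slc7a1, a carrier of arginine and lysine, had its larger difference in Foxp3- cells, where it was 121, 129 and 130.5 CPM in WT mice and 87.9, 81.7 and 95.6 CPM in DKO mice (log2 fold change −0.52, under 1.5-fold, adjusted p = 0.00644). Its Treg levels of 94.3, 83.0 and 87.9 CPM in WT mice and 100.8, 99.2 and 94.9 CPM in DKO mice did not overlap and differed by 0.15 on the log2 scale (adjusted p = 0.204), and its interaction was 0.67 ± 0.11 (SE, adjusted p = 0.025).

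Appl2, an endosomal adaptor of receptor signalling, was low in WT Treg cells and overlapped the Foxp3- libraries in DKO Treg cells. It stood at 2.14, 0.992 and 2.36 CPM in WT Treg cells and at 14.7, 12.6 and 6.04 CPM in DKO Treg cells, against 17.9, 14.8 and 18.4 CPM in WT Foxp3- cells and 13.6, 9.22 and 14.1 CPM in DKO Foxp3- cells (interaction 3.08 ± 0.47, adjusted p = 0.0151). Ccdc102a and Adgrg5, which encodes an adhesion G protein-coupled receptor, are neighbours 5.6 kb apart on chromosome 8, and both followed this course at low levels. Ccdc102a was 0.411, 0.579 and 0.295 CPM in WT Treg cells and 2.29, 3.31 and 6.88 CPM in DKO Treg cells. Adgrg5 had 1 count in each WT Treg library, 3 in all, and 52 counts in the 3 DKO Treg libraries, a ratio of 16.6 after library size (exact 95% interval 5.37 to 83.1, counting error only). In Foxp3- cells Adgrg5 lay between 0.704 and 2.36 CPM.

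Gsn, which encodes the actin-severing protein gelsolin (interaction 1.19), and Tagln2, which encodes the actin-binding transgelin-2 (0.98), were lower in WT Treg cells than in WT Foxp3- cells and rose in DKO Treg cells only. A rise in DKO Treg cells only was also called for Ssx2ip (1.36), Gpc1, a glypican of the cell surface (1.32), Mpp6 (1.07), the septin gene Sept11 (0.89) and Hdlbp, an RNA-binding vigilin (0.55). Gsn was 32.8, 32.1 and 29.8 CPM in WT Treg cells and 53.8, 84.0 and 62.9 CPM in DKO Treg cells, against 74.2 to 92.0 CPM in the 6 Foxp3- libraries.

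The 14 genes of no single pattern were looked at after their values were seen. Epas1, which encodes the hypoxia-inducible factor HIF-2α, fell from 33.1, 44.9 and 37.4 CPM to 2.52, 2.52 and 3.27 CPM in Treg cells. It also lay lower in DKO Foxp3- cells (19.8, 9.99 and 22.8 CPM) than in WT Foxp3- cells (31.4, 40.2 and 27.8 CPM), a change that was not called (adjusted p = 0.0534), and its interaction was −2.87 ± 0.37 (SE, adjusted p = 0.00735). Without DKO mouse 2 the change in Foxp3- cells was −0.65 and called (adjusted p = 0.0246), so that Epas1 then counted as changed in the same direction in both cell types. Kcnk5 and Kcnk6 encode potassium channels. Kcnk5 fell from 19.3, 20.8 and 18.5 CPM to 5.96, 3.95 and 7.13 CPM in Treg cells, while Foxp3- cells held 3.15, 7.16 and 4.39 CPM in WT mice and 6.30, 23.2 and 12.4 CPM in DKO mice (interaction −3.29 ± 0.57, adjusted p = 0.0307). With DKO mouse 2 left out its interaction was −2.47 (adjusted p = 0.00267), and its change in Foxp3- cells was 0.89 in place of 1.4998, called in neither reading. Kcnk6 was 12.2, 14.7 and 12.4 CPM in WT Treg cells and 8.33, 9.42 and 7.30 CPM in DKO Treg cells, and it rose in Foxp3- cells from 0.936, 0.945 and 1.10 CPM to 1.77, 3.73 and 2.92 CPM (interaction −2.16 ± 0.36, adjusted p = 0.025). Without DKO mouse 2 both changes of Kcnk6 were called, with opposite signs.

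Dnah7a, an axonemal dynein heavy chain gene, had the widest interaction of the 47 genes, −5.94 ± 1.03 (SE, adjusted p = 0.0307). It fell from 22.4, 24.7 and 26.4 CPM to 2.37, 2.52 and 2.77 CPM in Treg cells and was 0.0851, 0.27 and 0.0997 CPM in WT Foxp3- cells (1, 4 and 1 counts) and 2.75, 0.0704 and 0.619 CPM in DKO Foxp3- cells. Its change in Foxp3- cells without DKO mouse 2 was 3.28 (adjusted p = 0.0044) and Dnah7a counted as opposite. The DKO Foxp3- values came to 31, 1 and 7 counts, and without that library of mouse 1 the interaction was −4.21 (adjusted p = 0.0269). Over the 19 alternatives Dnah7a was called in 8, with adjusted p up to 0.127. Its near copy Dnah7b moved alike in Treg cells (interaction −6.10, adjusted p = 0.0888), and reads of the pair cannot be assigned with certainty. Of the other genes of this set, Sv2c (−3.11) and Cdc42bpb (3.07) were below 10 CPM in every library, Cdc42bpb rising from 0.247, 0.579 and 0.590 CPM to 7.94, 4.38 and 6.38 CPM in Treg cells. Cldnd1 (−0.93), Vps54 (−0.82), Inpp5f (−0.78), N4bp2l1 (−0.62) and Thumpd3 (−0.58) had changes under 1.5-fold in each cell type.

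Read the other way, the interaction is the change in the distance between the cell types. In WT mice 26 of the 27 genes with a negative interaction were higher in Treg cells than in Foxp3- cells, and for 23 of these the distance was smaller in DKO mice. Of the 20 genes with a positive interaction 16 were lower in WT Treg cells than in WT Foxp3- cells, and for 8 of these the distance was smaller in DKO mice. The Treg-minus-Foxp3- difference of Il1rl1 was 3.78 in WT mice and 0.24 in DKO mice on the log2 scale, and that of Rnase4 was 3.43 and 0.30. For H2-Aa it turned from −2.60 to 1.45, and for Epas1 from 0.21 to −2.66. These distances hold the same values as the interaction and are a description.

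**Figure D4:**
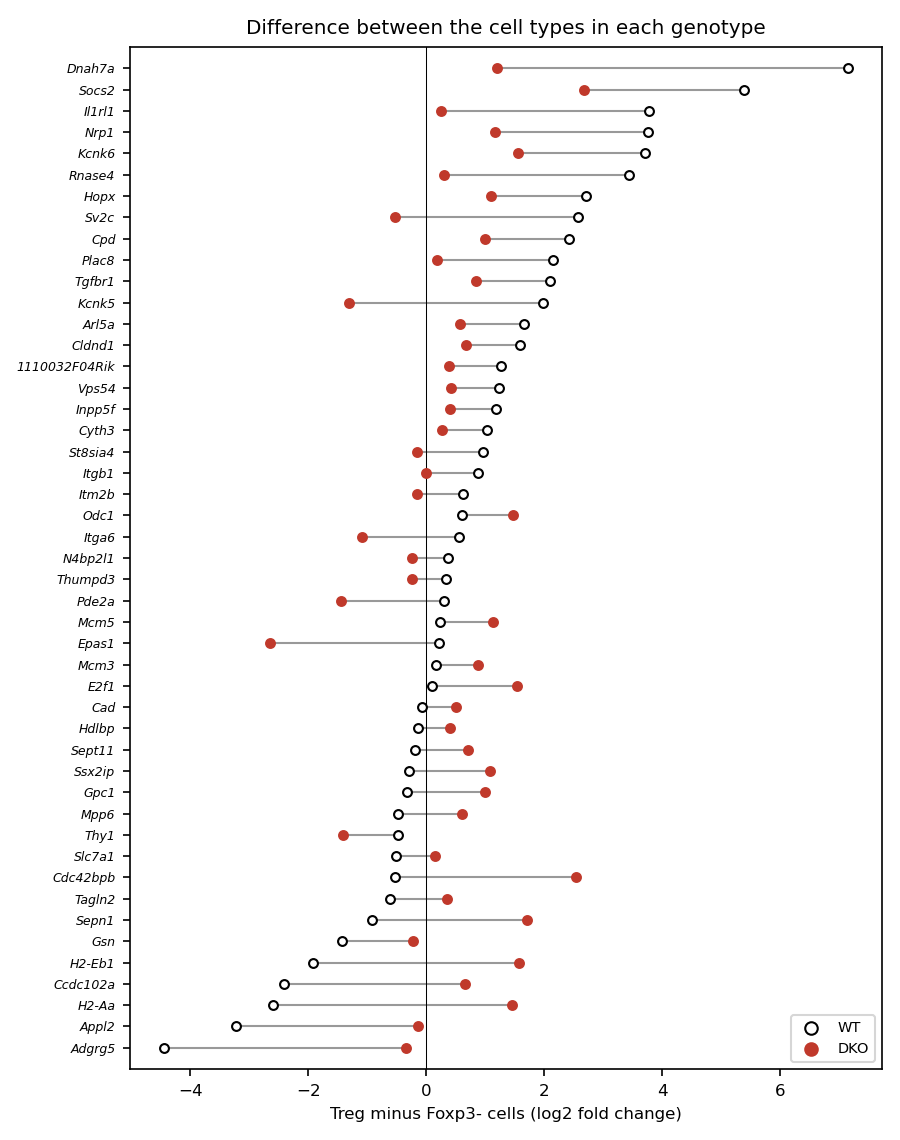
Treg-minus-Foxp3- log2 difference of each of the 47 genes in WT mice (open circles) and in DKO mice (filled circles), ordered by the WT value. Most genes at both ends of the WT order moved towards 0 in DKO mice, while H2-Aa moved from −2.60 to 1.45.

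Lists of genes known for roles in T cells place these genes among their kind. Of 41 Treg identity genes, 39 were measured. In Treg cells 17 were lower and 5 higher in DKO mice, against 3.43% and 8.5% of all genes. In Foxp3- cells 11 were higher and 1 lower, against 3.12% and 0.304%. The median DKO effect was −0.87 in Treg cells and 0.47 in Foxp3- cells, and the median interaction was −1.28. The interaction was negative for 36 of the 39, and for 26 (66.7%) it had an unadjusted p under 0.05, against 5.93% of all genes. Called were Il1rl1, Epas1, Socs2 and Nrp1. Klrg1, a lectin-like receptor of differentiated Treg cells, had an interaction of −3.26 ± 0.71 (SE) with an adjusted p of 0.0761, and it passed in the blocked fit (adjusted p = 0.0126). Klrg1 was called under 5 of the 19 alternatives, with an adjusted p up to 0.204. Without DKO mouse 2, 19 genes of the list were called negative and 2 positive, against 1.94% and 1.32% of all genes.

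The markers of Treg cells did not behave alike. Il2ra, the IL-2 receptor α chain, fell in Treg cells from 703, 797 and 783 CPM to 364, 239.5 and 449.8 CPM and lay between 12.3 and 25.0 CPM in Foxp3- cells. Its interaction of −1.403 ± 0.34 (SE) was not called with all libraries (adjusted p = 0.117) and was called in the blocked fit (adjusted p = 0.00302) and without DKO mouse 2 (−1.44). Ctla4, the inhibitory receptor, did not differ by the test in Treg cells (adjusted p = 0.755; 351, 407 and 402 CPM in WT mice, 296, 289.7 and 449.5 CPM in DKO mice), and in Foxp3- cells it rose from 23.2, 29.0 and 27.03 CPM to 44.0, 148 and 100.8 CPM. Its interaction was −2.05 ± 0.44 (SE, adjusted p = 0.0731), and without DKO mouse 2 it was −1.49 and called, with the change in Foxp3- cells only. Ikzf2, which encodes Helios, had an interaction of −0.88 (adjusted p = 0.167) and Ikzf4, which encodes Eos, of −0.72 (adjusted p = 0.376). Without DKO mouse 2 the interaction of Ikzf4 was −1.04 and called (adjusted p = 0.00588), with the change in Treg cells only. Over the 19 alternatives Il2ra and Ctla4 were each called in 4, and Ikzf2 and Ikzf4 each in 2.

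With all libraries the other lists had fewer calls than the Treg identity list. Of 24 naive and recirculating T cell genes, 13 were lower in DKO Treg cells and 1 in DKO Foxp3- cells, against 3.43% and 0.304% of all genes, and Itga6 was called by the interaction. The mean level of this list in DKO Foxp3- cells was 8.30, 7.07 and 8.05 (log2 CPM), with mouse 2 the lowest, and without that mouse 10 genes were called, all negative, against 1.94% of all genes. Of 12 Th2 genes, Il1rl1 and Epas1 were called. Of 50 cytokine receptors, Il1rl1 and Tgfbr1 were called, and 14 were lower and 8 higher in DKO Treg cells, against 3.43% and 8.5% of all genes. Integrins contributed Itga6 and Itgb1 of 25. Th1 and cytotoxic genes contributed Hopx of 29, helper and Treg transcription factors Epas1 of 58, and semaphorins and plexins Nrp1 of 19. The interaction called 0.28% of all genes with all libraries, the background for these counts. Without DKO mouse 2, 20 of 58 transcription factors (34.5%, 7 positive and 13 negative), 13 of 50 cytokine receptors (26%) and 9 of 29 Th1 and cytotoxic genes (31%) were called. So were 4 of 18 semaphorins and plexins (22.2%), 3 of 25 integrins (12%) and 2 of 12 Th2 genes (16.7%), against 3.26% of all genes.

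No gene was called by edgeR in the lists of Tfh genes, Th17 genes, co-inhibitory genes, activation genes, interferon-stimulated genes, chemokine receptors, cytokines, DNA methylation enzymes, kinase inhibitors or glycolysis genes. Of 28 Tfh genes, 10 were higher in DKO mice in each cell type, and of 20 co-inhibitory genes 6 were higher in DKO Treg cells and 7 in DKO Foxp3- cells, where 8.5% and 3.12% of all genes were higher. Among these, Pou2af1, a transcriptional coactivator of lymphocytes, had an interaction of 2.29 (adjusted p = 0.0577), Entpd1, the ectonucleotidase CD39, of −2.90 (adjusted p = 0.0731), Ahr, the aryl hydrocarbon receptor, of −1.61 (adjusted p = 0.0977) and Uhrf1, a reader of hemimethylated DNA, of 0.84 (adjusted p = 0.0908). All 4 were called with DKO mouse 2 left out, where Entpd1 was −1.71, Pou2af1 2.68, Ahr −1.52 and Uhrf1 0.68. Over the 19 alternatives Pou2af1 was called in 6, Ahr in 5, Entpd1 in 4 and Uhrf1 in 3. A negative interaction at an unadjusted p under 0.05 was found for 7 of 20 co-inhibitory genes (35%), 5 of 22 chemokine receptors (22.7%), 6 of 28 Tfh genes (21.4%), 7 of 42 cytokines (16.7%) and 2 of 16 Th17 genes (12.5%), against 5.93% of all genes. In the other 5 lists this share lay between 0% and 7.69%. A positive interaction at that level was found for 4 of 21 glycolysis genes (19.0%) and for 0% to 12.5% of the other lists, against 4.96% of all genes. In the blocked fit edgeR called 1 gene each of the Tfh, Th17, co-inhibitory, interferon-stimulated and chemokine receptor lists and 2 kinase inhibitor genes, all negative, against 0.483% of all genes. With DKO mouse 2 left out it called members of each of these lists, among them 4 positive and 2 negative Tfh genes and 2 positive and 3 negative co-inhibitory genes. The share called ran from 4.76% of the glycolysis genes to 25% of the co-inhibitory genes, against 3.26% of all genes. DESeq2 called 0 glycolysis genes and between 1 and 3 genes in each of the other lists, from 2.44% of the interferon-stimulated to 23.1% of the Th17 genes with an adjusted p, against 3.35% of all such genes.

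**Figure D5:**
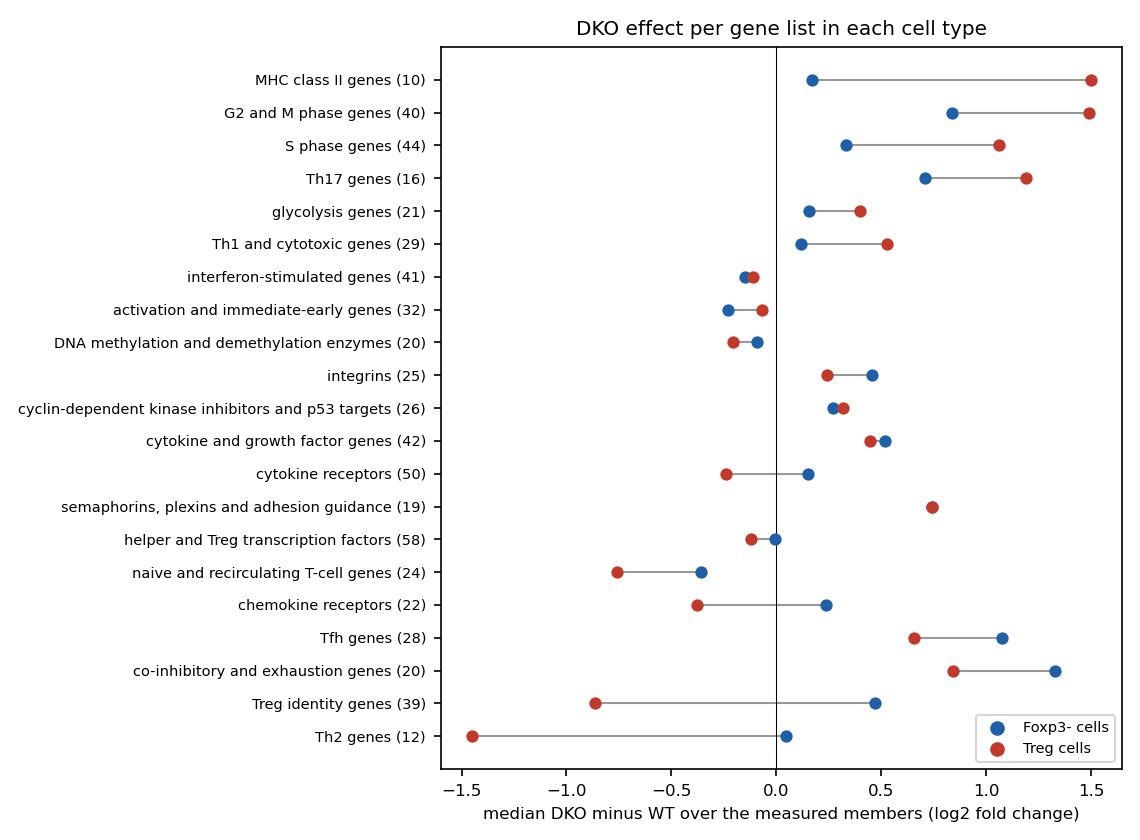
Median DKO-minus-WT log2 fold change over the measured members of each gene list in Foxp3- cells (blue) and Treg cells (red), ordered by the median interaction, with the number measured in brackets. Treg identity genes have medians of −0.87 in Treg cells and 0.47 in Foxp3- cells, and S phase genes of 1.06 and 0.33.

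The 8 libraries from spleen and peripheral lymph nodes, with 2 per group, gave a further set of values for the same subtraction, and the labels do not tell whether they came from the same mice. Their own fit called 1 of 16357 genes, with 905 at an unadjusted p under 0.05 and 11 called by DESeq2. The called gene was Il1rl1, with an interaction of −4.59 ± 0.38 (SE, adjusted p = 0.000688) beside −3.54 in the mesenteric nodes. Of the 47 genes 44 were measured there, and 35 of them had the same sign as in the mesenteric nodes, against 58.3% of the 14198 genes measured in both. Of the 35, 13 had an unadjusted p under 0.05, and no gene of opposite sign did. Leaving out a spleen and peripheral node library moved the 35 to between 28 and 42, both extremes arising from the DKO Foxp3- libraries.

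Side by side, Kcnk5 had an interaction of −2.61 in spleen and peripheral nodes and −3.29 in mesenteric nodes, H2-Aa of 1.51 and 4.04, Appl2 of 1.52 and 3.08, Ccdc102a of 4.01 and 3.07, and Pde2a of −1.35 and −1.75. Of the 3 called S phase genes, E2f1 stood at 0.04 ± 0.46 (SE), Mcm3 at 0.07 ± 0.33 and Mcm5 at −0.19 ± 0.29 in spleen and peripheral nodes. Nrp1 stood at −0.69 ± 0.38 there, with DKO effects of −1.24 in Treg cells (adjusted p = 0.0424) and −0.55 in Foxp3- cells (adjusted p = 0.421), so the signs were not opposite. Sepn1 likewise had effects of the same sign, 1.26 in Treg cells (adjusted p = 0.101) and 0.58 in Foxp3- cells (adjusted p = 0.577). For Rnase4 the effects were −0.46 and 0.29, neither called. H2-Aa and H2-Eb1 were higher in DKO mice in both cell types of spleen and peripheral nodes. H2-Aa rose by 2.88 in Treg cells and by 1.37 in Foxp3- cells (adjusted p = 0.0166), and H2-Eb1 by 2.68 and 1.66 (adjusted p = 0.0173 in Foxp3- cells). Whether the values differ between the tissues was not tested.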

How the data were processed

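RNA was sequenced as single-end 50-base reads. The authors mapped reads with TopHat2 (2.1.1) on mm9, allowed 1 placement per read, and used featureCounts (Subread 1.4.3-p1) by strand on RefSeq genes. The deposited counts are raw, 9998478 to 15449158 per library. The deposited TPM values, calculated by the authors in a way not given in the sources used here, gave no printed value.

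The counts of all 4 groups entered 1 quasi-likelihood fit in edgeR 4.0.16 (R 4.3.3, TMM scaling, genes with at least 1 count, Benjamini-Hochberg adjustment). Interaction, both DKO effects and their standard errors come from it, and CPM uses TMM library sizes. The spleen table was fitted separately. DESeq2 1.42.0 was an alternative. The fit was also run on simulated counts in which all libraries were drawn independently, which does not test the pairing of samples. The p-values of the main fit measure the spread between libraries of a group. They treat Treg and Foxp3- libraries with the same replicate number as independent.

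The members, gene lists and tests were chosen with earlier results of these data known. Genes named for their class had at least 10 CPM in the highest group and DKO and WT replicates that did not overlap in each cell type with a called effect. By size of the interaction these were up to 8 opposite genes per direction, 6 per direction called in 1 cell type only and 4 per direction changed the same way. Named without these minimums were up to 5 genes per list, the opposite genes of highest CPM, Foxp3, Tet2 and Tet3. Other called genes are named after their values were seen.

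Replicate numbers were taken to pair Treg and Foxp3- samples of a genotype, which the labels do not state. Deviations from the group means correlated at 0.15 to 0.52 for the same number, and at −0.43 to 0.17 for other numbers. The ranges overlapped, and deviations from a group mean push the values for other numbers down when those for the same number are positive. A fit with the mouse as replicate block was therefore made. Gene positions are from GENCODE M1 (mm9), promoters from RefSeq, where 38 of the 47 genes matched. Intervals and low counts cover counting error only.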

Additional observations from a re-analysis of the deposited data

Results flagged for a closer look

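Each of the 47 genes is listed because its DKO effect differed between Treg cells and Foxp3- cells by the test of the difference itself, at an adjusted p of at most 0.05 in edgeR. The values below are DKO effects in Treg cells minus those in Foxp3- cells, on the log2 scale, with 3 mice per group.

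Among genes with a negative value, Dnah7a −5.94, Il1rl1 −3.54, Kcnk5 −3.29, Rnase4 −3.13, Sv2c −3.11, Epas1 −2.87, Socs2 −2.71, Nrp1 −2.60 and Kcnk6 −2.16 were beyond −2. Plac8 −1.96, Pde2a −1.75, Itga6 −1.65, Hopx −1.61, Cpd −1.42, Tgfbr1 −1.26, St8sia4 −1.13 and Arl5a −1.07 lay between −1 and −2. Cldnd1 −0.93, Thy1 −0.92, 1110032F04Rik −0.88, Itgb1 −0.88, Vps54 −0.82, Inpp5f −0.78, Itm2b −0.77, Cyth3 −0.77, N4bp2l1 −0.62 and Thumpd3 −0.58 were smaller. Among genes with a positive value, Adgrg5 4.10, H2-Aa 4.04, H2-Eb1 3.50, Appl2 3.08, Cdc42bpb 3.07, Ccdc102a 3.07 and Sepn1 2.63 were above 2. E2f1 1.45, Ssx2ip 1.36, Gpc1 1.32, Gsn 1.19 and Mpp6 1.07 lay between 1 and 2. Tagln2 0.98, Mcm5 0.89, Sept11 0.89, Odc1 0.86, Mcm3 0.72, Slc7a1 0.67, Cad 0.57 and Hdlbp 0.55 were smaller.

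Dnah7a shares sequence with a near copy, Rnase4 overlaps Ang on the same strand, and Adgrg5 had 1 count in each WT Treg library, so these values carry that limit. Groups of 3 were too small for a search for single outlying samples.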

How the results depend on the processing

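The alternatives were DESeq2 size factors, a filter on low counts, a robust prior, DESeq2's test, a 1.5-fold minimum, 2 replicate blocks and leaving out each library. The signs of all 47 genes held throughout, and the counts of genes did not. The same libraries chose these genes, so the kept signs are no independent support. With DESeq2's own test the called genes were 409 (165 positive), of which 7 were opposite, 160 in Treg cells only and 21 in Foxp3- cells only. With the replicate block by mouse they were 118 (37 positive), 70 in Treg cells only and 1 in Foxp3- cells only. With a block by number across genotypes, which pairs nothing by design, they were 40. The robust prior left 1 opposite gene. Without both libraries of DKO mouse 2, an alternative chosen after seeing the data, they were 538 (218 positive), 6 opposite, 318 in Treg cells only and 22 in Foxp3- cells only, and 351 of 501 had the same sign in spleen and peripheral nodes. Leaving out 1 library gave 9 to 462 called genes, 3 to 140 positive, 0 to 15 opposite, 6 to 286 in Treg cells only and 0 to 58 in Foxp3- cells only, with the lowest counts without WT libraries and the highest without the DKO Foxp3- libraries of mouse 1 or 2. The cause was not tested. The interaction of Foxp3 was near 0 and changed sign. Over the libraries left out it ran from −0.55 to 0.96, with −0.05 without WT Foxp3- mouse 1, −0.55 without DKO Foxp3- mouse 2 and −0.52 without both libraries of DKO mouse 2, and was not called. Genes with under 3 counts per library in a group are limited by depth, 3 counts being 0.203 to 0.299 CPM.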
